A study of Sus scrofa with 10 samples.

Results

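Apolipoprotein E (APOE) and 5 genes of lipoprotein uptake and cholesterol export (VLDLR, LRP1, ABCA1, ABCG1 and SCARB1) were followed in nuclear RNA of cardiomyocytes sorted from minipig (Sus scrofa) hearts. The 6 genes were selected by symbol, on a comparison of the 3 treatment groups whose earlier results were already known, so their differences between groups are given as a description and without p-values. By name, 5 of the 6 were found among 35670 gene identifiers, and all 5 were among the 17251 genes that passed the filter on low counts. LRP1 was not matched by name. All libraries were of the WT genotype and differed in treatment. Libraries 1 to 5 were controls that received PBS (phosphate-buffered saline), libraries 6 and 7 received deoxycorticosterone acetate (DOCA), a mineralocorticoid given in animal models of hypertension, and libraries 8 to 10 received DOCA + JK07. The series title names JK07 as an agonist of ERBB4, a neuregulin receptor. The labels did not state doses, times, the heart chamber or the animal behind each library, so SDs and p-values cover the spread between these libraries and may be technical only.

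APOE is the protein by which remnant lipoproteins and lipid particles are recognised by cells, and macrophages are a major source of it in peripheral tissues, while the liver supplies most of it in plasma. VLDLR and LRP1 are endocytic receptors that bind APOE-bearing particles, and SCARB1 takes up cholesterol esters from high-density lipoprotein. ABCA1 and ABCG1 are membrane pumps that pass cellular cholesterol to apolipoprotein A1, to APOE and to high-density lipoprotein, and both are textbook targets of the liver X receptors. VLDLR is abundant in heart, where fatty acids from triglyceride-rich particles are a main fuel.

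The DOCA libraries stood apart from the other 8. They held 6.80 M (library 6) and 3.24 M (library 7) estimated counts on the chromosomes, against 8.58 to 13.8 M in control and 8.93 to 12.8 M in DOCA plus JK07. Of 35670 identifiers, 11563 and 10658 were above 0 in libraries 6 and 7, against 14952 to 17061 elsewhere. Of 13476 genes above 0 in at least 8 libraries, 19.1% and 23.7% were at 0 in libraries 6 and 7, against 0.0965 to 1.57% elsewhere. A gene at 0 in both DOCA libraries enters that set only if it is above 0 in all 8 others, which keeps the shares elsewhere low. All 10 libraries put 77.8 to 90.9% of their counts on unplaced scaffolds. The 10 measured cardiomyocyte markers were above 0 in every library, with MYH6, the alpha myosin heavy chain, at 2443 ± 196 CPM (SD, n = 5) in control. CPM here is counts per 1000000 after TMM scaling, which evens out composition between libraries. In bulk RNA, fewer cells of a type and less RNA per cell cannot be told apart.

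In CPM, APOE was higher in every DOCA and DOCA plus JK07 library than in any control, and of the 5 members found it differed most between DOCA plus JK07 and control. The gene spans 51372292 to 51375330 on the plus strand of chromosome 6 (Sscrofa11.1). In control libraries 1 to 5 APOE stood at 3.36, 2.85, 3.72, 3.10 and 1.89 CPM. The DOCA libraries 6 and 7 had 5.45 and 8.40 CPM, and the DOCA plus JK07 libraries 8 to 10 had 7.97, 12.3 and 11.2 CPM. The highest control was thus below the lowest treated library, while DOCA library 7 lay above JK07 library 8, so these 2 groups overlapped. The group means were 2.98 ± 0.692 CPM in control (SD, n = 5), 6.93 ± 2.08 CPM in DOCA (n = 2) and 10.5 ± 2.26 CPM in DOCA plus JK07 (n = 3). These levels rest on 124 to 372 estimated counts per control library, 213 and 251 in DOCA and 647 to 1022 in DOCA plus JK07.

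The log2 change of APOE in DOCA plus JK07 against control was 1.81 (SE 0.26), a 3.52-fold difference. APOE did not pass the Benjamini-Hochberg threshold of 0.05 in the edgeR quasi-likelihood fit. None of the 17251 genes passed (0.0% in either direction), with 803 at an unadjusted p under 0.05. The lowest edgeR adjusted p of any gene was 0.977. DESeq2 called 113 genes and voom with quality weights per library called 8, and APOE was among both sets. Over the 20 alternative settings its log2 change stayed between 1.68 and 2.00. Of all genes tested, 3.37% were higher in DOCA plus JK07 with no overlap between the groups, as APOE was, and 10.2% were higher in DOCA than in control in the same way.

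In DOCA against control APOE had a log2 change of 1.21 (SE 0.29) and passed the threshold, in a fit that called 5.73% of genes higher and 19.7% lower. Without library 7 the log2 change was 0.86 and no longer passed. By TPM as deposited, a level scaled to transcript length and to the library total, library 6 held 3.03 TPM, inside the control range of 2.10 to 3.76 TPM, whereas library 7 held 8.37 and the JK07 libraries 10.2 to 17.8 TPM. The separation of library 6 from control was thus present in CPM and absent in TPM. A low TMM factor raises CPM, and that of library 6 was 0.511, against 0.871 to 1.35 elsewhere. In TPM rescaled over the chromosomes, library 6 (31.6) also lay inside the control range of 21.3 to 41.5. In counts per M counts on the chromosomes, without TMM, it held 31.3, above the controls at 14.1 to 27.0. The part of the TMM factor in the CPM separation was not tested. Between DOCA plus JK07 and DOCA, whose DOCA libraries also enter the comparison with control, the log2 change was 0.60 (SE 0.33) and did not pass.

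**Figure D1:**
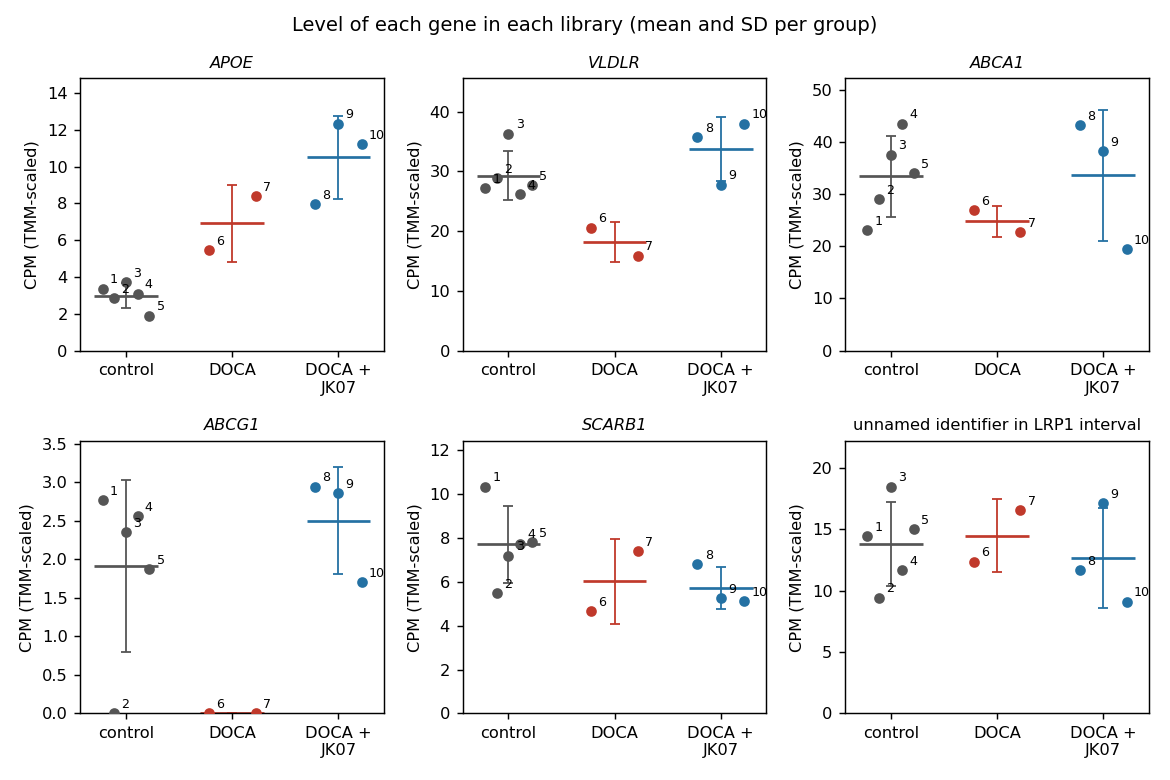
Each panel plots 1 gene in CPM after TMM scaling, with a point per library marked by its number, a bar at the group mean and whiskers of 1 SD (control n = 5, DOCA n = 2, DOCA plus JK07 n = 3). APOE lies at 1.89 to 3.72 CPM in control and 7.97 to 12.3 CPM in DOCA plus JK07, VLDLR is lowest in the DOCA libraries, and ABCG1 is at 0 in libraries 2, 6 and 7.

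VLDLR, the receptor that binds APOE-bearing and triglyceride-rich particles, was lower in DOCA than in either other group. It lies on the minus strand of chromosome 1, from 219173507 to 219210343. Control libraries 1 to 5 held 27.2, 28.9, 36.3, 26.2 and 27.7 CPM. DOCA libraries held 20.6 and 15.9 CPM, and DOCA plus JK07 libraries held 35.7, 27.7 and 38.0 CPM. Both DOCA values were below all other libraries, and the 3 JK07 values overlapped the controls. The means were 29.3 ± 4.06, 18.2 ± 3.32 and 33.8 ± 5.36 CPM.

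Against control, VLDLR fell in DOCA by 0.68 on the log2 scale (SE 0.21), which passed the threshold. The median of all 17251 genes in that comparison was -0.63, with 4858 genes at 0 in all libraries of a group, and 0.08 with those zeros placed at a coverage of 1. The call was lost in 13 of 20 alternatives, among them leaving out library 7 (-0.51) and upper quartile scaling (-0.45). Of all genes tested, 27.6% were lower in DOCA with no overlap with control. In DOCA plus JK07 against DOCA, VLDLR had a log2 change of 0.89 (SE 0.22) and passed, where 14.7% of genes were called higher, 2.25% lower, 30.3% were higher with no overlap, and the median of all genes was 0.55 (-0.02 with zeros placed at that coverage). That call was lost in 6 of 20 alternatives, including without library 7 (0.72), without library 8 (0.80) and without library 10 (0.75). Its log2 change in DOCA plus JK07 against control was 0.21 (SE 0.17) and did not pass.

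LRP1, the large endocytic receptor for APOE-bearing remnants, had no identifier of that name. RefSeq places LRP1 at 22435636 to 22519276 of chromosome 5 on Sscrofa11.1. The unnamed identifier ENSSSCG00000050398 lies within that interval (22435730 to 22462848, plus strand) and covers 32.4% of it. Its values describe that identifier and are not taken as LRP1. In control it held 14.4, 9.40, 18.5, 11.7 and 15.0 CPM, in DOCA 12.4 and 16.6 CPM, and in DOCA plus JK07 11.7, 17.1 and 9.11 CPM. All 3 groups overlapped, and none of the 3 comparisons passed, with log2 changes of -0.13 (SE 0.27), 0.07 (SE 0.31) and -0.19 (SE 0.34) for DOCA plus JK07 against control, DOCA against control and DOCA plus JK07 against DOCA.

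SCARB1, the receptor for high-density lipoprotein, passed the threshold in no comparison. It spans 28301294 to 28393568 on the plus strand of chromosome 14. Control libraries held 10.3, 5.48, 7.20, 7.73 and 7.80 CPM, DOCA libraries 4.66 and 7.39 CPM, and DOCA plus JK07 libraries 6.80, 5.26 and 5.10 CPM. The log2 change in DOCA plus JK07 against control was -0.43 (SE 0.24), with library 8 inside the control range and libraries 9 and 10 just under the lowest control. Against control it was -0.36 (SE 0.28) in DOCA, and in DOCA plus JK07 against DOCA it was -0.07 (SE 0.30).

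ABCA1, the pump that loads cholesterol onto lipid-poor apolipoproteins, had almost the same mean in control and DOCA plus JK07. It lies on the minus strand of chromosome 1, from 246144277 to 246278492. Control libraries held 23.1, 29.0, 37.5, 43.4 and 33.9 CPM, DOCA libraries 26.9 and 22.7 CPM, and DOCA plus JK07 libraries 43.2, 38.2 and 19.5 CPM. The JK07 libraries spanned almost the whole range of the gene, since library 10 was the lowest of all 10 libraries and library 8 was near the highest. The means were 33.4 ± 7.79, 24.8 ± 2.96 and 33.6 ± 12.5 CPM. The log2 change was 0.01 (SE 0.29) in DOCA plus JK07 against control, -0.43 (SE 0.34) in DOCA against control and 0.44 (SE 0.36) in DOCA plus JK07 against DOCA. All 3 comparisons overlapped and none passed.

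ABCG1, the pump that passes cholesterol to high-density lipoprotein, had the lowest level of the 5 members found. It spans 205561951 to 205628425 on the plus strand of chromosome 13. Control libraries 1, 3, 4 and 5 held 2.77, 2.35, 2.56 and 1.87 CPM, and control library 2 was listed at 0. Both DOCA libraries were listed at 0, and DOCA plus JK07 libraries held 2.94, 2.86 and 1.70 CPM. The gene passed the threshold as lower in DOCA against control, with no fold given against a group at 0, and it did not pass in DOCA plus JK07 against DOCA. The first call was lost in 12 of 20 alternatives, among them voom and leaving out any 1 library except library 2, and in the second the gene was called in 6 of 20, DESeq2 among them. Where listed, its deposited coverage was 0.507 to 1.19, and only 3.96% of all coverages above 0 were under 1, so a 0 here is not a transcript shown to be absent. Between DOCA plus JK07 and control the log2 change was 0.39 (SE 1.17). Without library 2 it was 0.069 (SE 0.31), and with voom quality weights 1.15 (SE 1.29), neither of which passed. Of the 5 members found, 3 thus passed in DOCA against control (APOE higher, VLDLR and ABCG1 lower), where 5.73% of all genes were called higher and 19.7% lower. In DOCA plus JK07 against DOCA 1 passed (VLDLR, higher), where 14.7% were called higher and 2.25% lower, and 0 passed in DOCA plus JK07 against control.

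**Figure D2:**
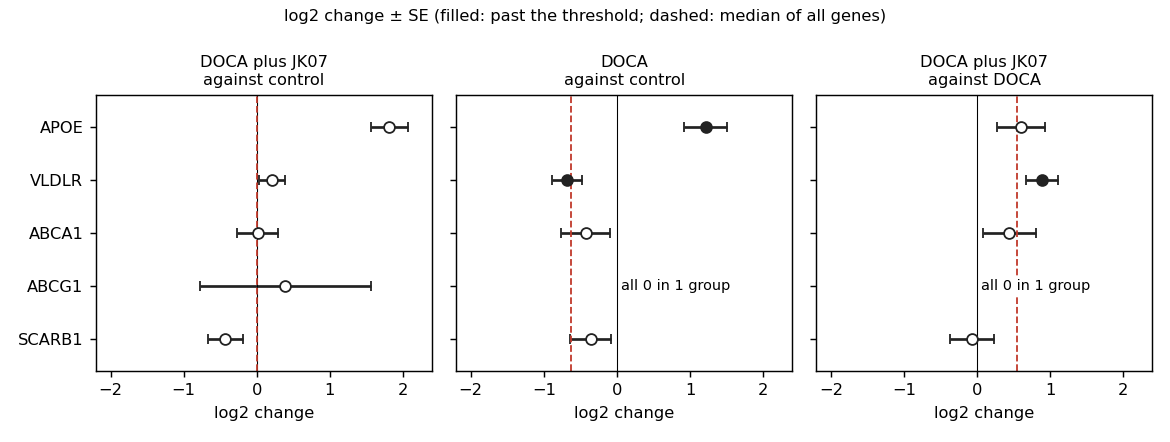
Points give the log2 change and bars 1 SE from the edgeR fit over 10 libraries, 1 panel per comparison, with filled points past the threshold of 0.05 after adjustment and the dashed line at the median of all 17251 genes. APOE at 1.81 lies apart from the other members in DOCA plus JK07 against control, and in DOCA against control APOE and VLDLR are the members drawn past the threshold, at 1.21 and -0.68. The all-gene median there (-0.63) includes genes at 0 in a whole group and is 0.08 with zeros placed at a coverage of 1. No value is drawn for ABCG1 where a group is all 0.

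Levels of different genes were compared per length, as TPM rescaled over the identifiers of chromosomes 1 to 18, X and Y. In control the order was VLDLR (75.6 ± 10.9), ABCA1 (66.2 ± 18), SCARB1 (37.2 ± 9.20), APOE (33.0 ± 7.97) and ABCG1 (4.66 ± 2.73). VLDLR and ABCA1 did not differ beyond their spread, nor did SCARB1 and APOE. APOE came first in DOCA plus JK07 at 111 ± 31.6, followed by VLDLR at 82.1 ± 6.29, ABCA1 at 63.3 ± 25.3, SCARB1 at 25.9 ± 3.82 and ABCG1 at 5.71 ± 1.86. APOE, VLDLR and ABCA1 overlapped there within their SDs. In DOCA the mean of APOE was 75.8 ± 62.4, the least certain of these values, since library 6 held 31.6 and library 7 held 120.

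Ratios within a library are free of scaling between libraries. The ratio of APOE to VLDLR in TPM was 0.292 to 0.528 in the 5 controls, 1.14 and 2.27 in the DOCA libraries and 0.956 to 1.90 in the JK07 libraries. For APOE to ABCA1 the control range was 0.313 to 0.816, with 1.14 and 2.08 in DOCA and 1.04 to 3.24 in DOCA plus JK07. APOE to SCARB1 ran from 0.560 to 1.20 in control, was 2.71 and 2.62 in DOCA and ran from 2.71 to 5.40 in DOCA plus JK07. In all 3 ratios every treated library lay above every control, library 6 included. Among the 5 members found, APOE held rank 3 or 4 in each control, rank 1 in both DOCA libraries, rank 2 in JK07 library 8 and rank 1 in libraries 9 and 10. A ratio shows unequal change of its 2 genes and does not say which of them moved.

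**Figure D3:**
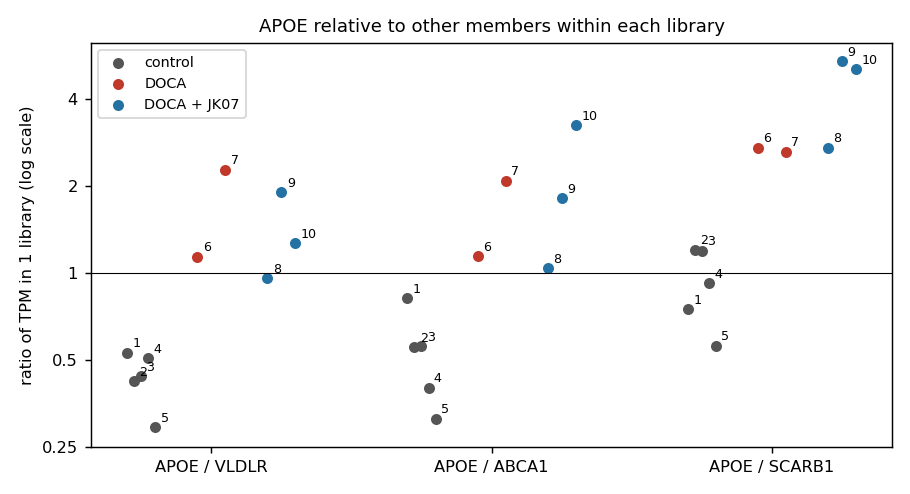
Each point is 1 library, marked by its number, and gives the TPM of APOE divided by that of VLDLR, ABCA1 or SCARB1 in the same library on a log scale. The 5 controls lie at 0.292 to 0.528, 0.313 to 0.816 and 0.560 to 1.20, below every DOCA and DOCA plus JK07 library in all 3 ratios.

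No tested neighbour of APOE on chromosome 6 had a log2 change above 0.23 in DOCA plus JK07 against control. Of 5 identifiers within 50 kb, 3 were tested, and none passed in DOCA plus JK07 against control or in DOCA against control. In the first of these comparisons none of all 17251 genes passed, APOE included, so a missing call there does not set a neighbour apart from APOE. TOMM40, a subunit of the mitochondrial import channel whose gene ends 2384 bp before APOE, had a log2 change of -0.06 (SE 0.42) in DOCA plus JK07 against control. CLPTM1 stood at 0.23 (SE 0.23) and an unnamed identifier on the other side of TOMM40 at 0.21 (SE 0.17). APOC4, an apolipoprotein gene of the same cluster, was listed at 0 in all libraries. The ratio of APOE to TOMM40 in CPM was 0.838 to 1.53 in control, 3.45 to 5.41 in DOCA plus JK07, and 0.951 and 6.12 in DOCA libraries 6 and 7. Library 6 lay inside the control range in this ratio, with TOMM40 at 5.73 CPM there.

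Near the other members, the VLDLR interval is overlapped on the opposite strand by an unnamed identifier with 0.0969 CPM in control. The sources used here did not state how strand was treated in counting, so reads of that pair may not be separable. NIPSNAP3B, 3880 bp from ABCA1, fell by 2.11 on the log2 scale in DOCA against control (SE 0.37, edgeR adjusted p = 0.00251) and was higher by 2.26 in DOCA plus JK07 against DOCA (SE 0.39, adjusted p = 0.00252), where ABCA1 itself passed neither comparison. TFF2 and TFF3, beside ABCG1, were listed at 0 in every group.

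The genes whose log2 CPM profile was most like that of each member were taken by Pearson correlation over 10 libraries, as a description. APOE was closest to PMM2 (0.910), HIC2 (0.890) and ZFAT (0.851), which like APOE had higher means in both treated groups than in control. VLDLR was closest to TOR1AIP1 (0.964), CCAR1 (0.950) and OXNAD1 (0.942), all lower in DOCA. ABCA1 was closest to MOB3B (0.918), TLR3 (0.911) and LNX1 (0.910), and ABCG1 to INKA1 (0.996) and SIGLEC1 (0.996). INKA1 and SIGLEC1, like ABCG1, were listed at 0 in libraries 6 and 7, and over the other 8 libraries their coefficients were 0.992 and 0.990. Among those 8, ABCG1 was itself at 0 in control library 2 and at 1.70 to 2.94 CPM in the rest. Library 2 thus weighs on these coefficients, and none was taken without it. MOB3B, TLR3 and LNX1 were also at 0 in libraries 6 and 7, where ABCA1 was not, and their coefficients over the 8 were 0.938, 0.930 and 0.906. SCARB1 was closest to SHC3 (0.896), UBE2D2 (0.890) and GTF2F2 (0.890). Over the 8 libraries of control and DOCA plus JK07 alone, APOE was closest to LAT (0.964), TSPAN15 (0.959) and GPC4 (0.957) instead. Between members the coefficients over 10 libraries ran from -0.50 (APOE and SCARB1) to 0.67 (VLDLR and ABCG1), and APOE and VLDLR gave -0.0066.

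Cells other than cardiomyocytes that make APOE were checked by their markers. The summed CPM of 18 macrophage and monocyte markers was 83.1 to 242 in control, 109 to 184 in DOCA and 80.5 to 130 in DOCA plus JK07. Of the 18, 17 had a log2 change below 0 in DOCA plus JK07 against control. The median of the 18 was -0.45, against -0.00050 for all genes. None of the 18 passed, where none of all 17251 genes did. In edgeR, 1 of the 18 had an unadjusted p under 0.05 in this comparison, beside 803 of all genes. CD163, a scavenger receptor of resident macrophages, went from 41.6 ± 25.7 CPM in control to 25.7 ± 15.9 CPM, and CD74, the invariant chain of antigen presentation, from 45.5 ± 14.1 to 35.7 ± 5.45 CPM. Control library 5 had the highest marker sum and the lowest APOE, whereas library 10 had the lowest sum and an APOE level of 11.2 CPM. Of the markers, AIF1 was at 0 in libraries 2, 6, 7 and 10, LYVE1 in libraries 6, 7 and 10, and TYROBP and MERTK in library 6. In CPM, the summed markers of both treated groups lay within or below the control range, and APOE lay above it. By TPM, APOE in DOCA library 6 (3.03 TPM) lay inside the control range of 2.10 to 3.76 TPM. The part of macrophages in the APOE values was not tested.

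Sums for other cell types overlapped between control and DOCA plus JK07 as well. Endothelial markers summed to 158 to 320 CPM in control, 177 to 269 in DOCA and 167 to 238 in DOCA plus JK07. Fibroblast markers summed to 933 to 2932, 987 to 3085 and 874 to 2232 CPM in the same order, smooth muscle and pericyte markers to 109 to 158, 90.0 to 109 and 121 to 161 CPM, and Schwann cell markers to 2.67 to 6.78, 2.56 to 2.71 and 4.95 to 8.97 CPM. Adipocyte markers summed to 7.33 to 10.4, 12.7 to 17.0 and 7.32 to 8.33 CPM. That sum is mostly PNPLA2, a triglyceride lipase not limited to adipocytes, at 7.32 ± 1.06, 13.1 ± 4.92 and 7.08 ± 0.671 CPM. ADIPOQ and LEP, the adipokines of fat cells, were at 0 in all 10 libraries. FABP4 was at 0 in 4 of 5 controls and in every treated library. All 4 tested adipocyte markers had a log2 change above 0 in DOCA against control (median 0.95). Of them PNPLA2 passed (log2 change 0.84, SE 0.23, edgeR adjusted p = 0.0265), where 5.73% of all genes were called higher. Cardiomyocyte markers summed to 4403 to 5372 CPM in control, 3839 and 5823 in DOCA and 5213 to 8522 in DOCA plus JK07. The 13 mitochondrially encoded genes summed to 521 to 1019, 70.3 to 157 and 843 to 1813 CPM, and all 13 fell in DOCA against control and were higher in DOCA plus JK07 against DOCA. The part of these cell type and mitochondrial differences in the values of the members was not tested.

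**Figure D4:**
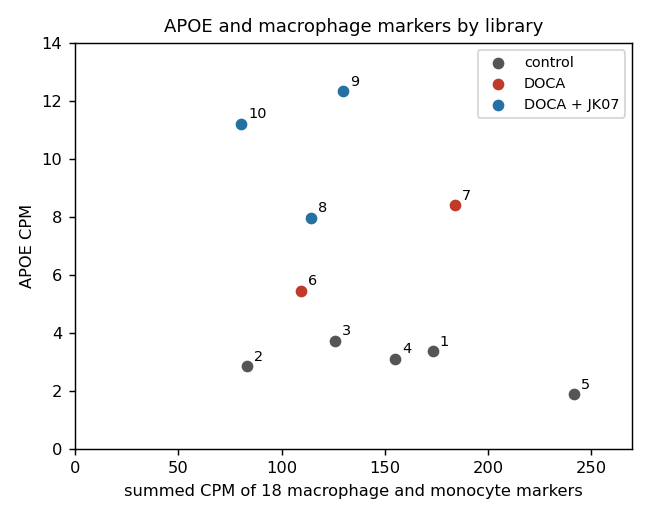
The x axis is the summed CPM of 18 macrophage and monocyte markers and the y axis the CPM of APOE, with 1 numbered point per library. Library 5 has the highest marker sum (242) with an APOE of 1.89 CPM, and library 10 the lowest sum (80.5) with 11.2 CPM.

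Around the members, 106 further genes of lipoprotein and sterol handling were measured in 5 lists. None of the 106 passed in DOCA plus JK07 against control by edgeR or by DESeq2. Of all 17251 genes, edgeR called 0 there and DESeq2 113, so few or no calls among 106 genes say little about these lists. In edgeR, 4 of the 106 had an unadjusted p under 0.05, beside 803 of all 17251 genes. Of the 106, 43 had a log2 change above 0 and 63 below. List medians lay between -0.15 (sterol synthesis) and 0.16 (apolipoproteins and lipoprotein remodelling). NR1H3, the liver X receptor alpha, was at 3.13 ± 0.636, 3.12 ± 1.74 and 3.23 ± 0.549 CPM in control, DOCA and DOCA plus JK07, and passed in no comparison. NPC1, which moves cholesterol out of lysosomes, and SOAT1, which esterifies it, passed in no comparison either.

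**Figure D5:**
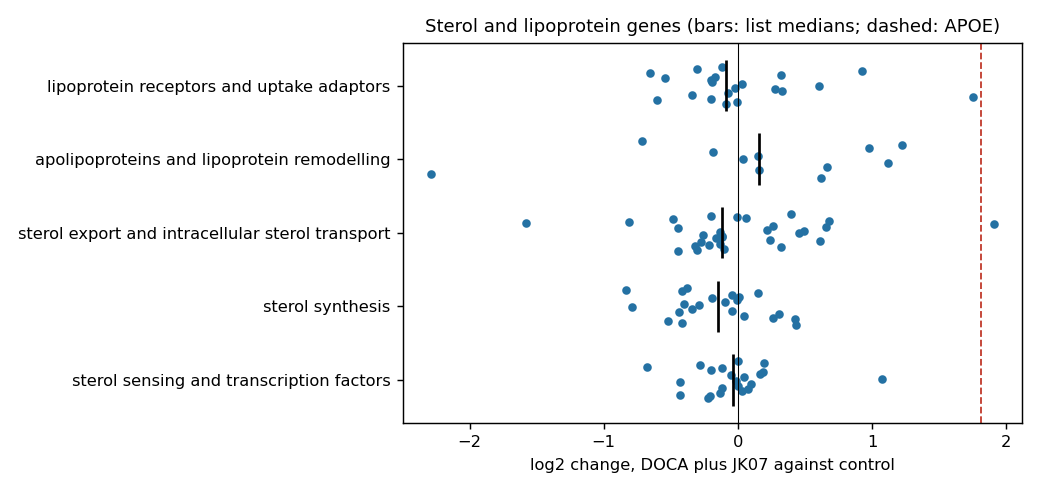
Each point is 1 of 106 tested genes in 5 lists, placed by its log2 change in DOCA plus JK07 against control, with a bar at the list median and a dashed line at APOE (1.81). List medians lie between -0.15 and 0.16. None of the genes passed the threshold, where none of all 17251 genes tested did.

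In DOCA against control 7 of the 106 were higher and 17 lower, beside 5.73% and 19.7% of all genes. The comparison of DOCA plus JK07 against DOCA shares the DOCA libraries, and there 13 were higher and 2 lower, beside 14.7% and 2.25%. LPL, the lipase that frees fatty acids from the particles VLDLR binds, stood at 16.6 ± 4.74 CPM in control, 2.89 ± 1.86 in DOCA and 25.5 ± 11.0 in DOCA plus JK07. It fell by 2.52 on the log2 scale in DOCA against control (SE 0.51, edgeR adjusted p = 0.00643) and was higher by 3.14 in DOCA plus JK07 against DOCA (SE 0.55, adjusted p = 0.00307). Among receptors and uptake adaptors, 1 of 21 rose and 1 fell in DOCA against control. LRP5, a receptor of the same family known for Wnt signalling, rose by 1.05 (SE 0.25, edgeR adjusted p = 0.0129), which without library 6 was 0.50 and lost the call. SCARB2, a lysosomal membrane protein, fell by 1.18 (SE 0.29, adjusted p = 0.0177).

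Among 11 apolipoprotein and remodelling genes 0 rose and 2 fell in DOCA against control (LPL and APOD), and both were higher in DOCA plus JK07 against DOCA. Of 30 export and transport genes 2 rose (ABCA2 and OSBPL5) and 6 fell, and 5 were higher in DOCA plus JK07 against DOCA. Of 22 synthesis genes 2 rose and 4 fell. LSS, lanosterol synthase, rose from 8.78 ± 2.11 CPM in control to 21.0 ± 6.65 CPM in DOCA (log2 change 1.25, SE 0.28, edgeR adjusted p = 0.0114). Of 22 genes of sterol sensing and transcription 2 rose and 4 fell. SREBF2, the transcription factor that drives sterol synthesis genes, stood at 16.8 ± 3.43, 31.0 ± 1.06 and 14.5 ± 5.32 CPM, and its rise in DOCA (0.88, SE 0.27, edgeR adjusted p = 0.0438) was lost in 12 of 20 alternatives. NCOA1, a nuclear receptor coactivator, fell by 2.38 on the log2 scale (SE 0.21, edgeR adjusted p = 4.72e-05).

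Many of the genes called lower had a value of 0 in libraries 6 and 7, and no size is given for them. They include APOD, a small lipid carrier, ABCA5, LIPA, the lysosomal acid lipase, ARV1, LBR, PMVK, CYP51A1 and RXRG, all above 0 in every control and every JK07 library. With zeros placed at a coverage of 1, the median log2 change of all genes in DOCA against control was 0.08 instead of -0.63, and that of the apolipoprotein list 0.36 instead of -2.52. The counts of lower genes in DOCA therefore stand beside the zeros of libraries 6 and 7, and their part was not tested.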

How the data were processed

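Nuclear RNA of sorted cardiomyocytes was sequenced in 10 libraries (control 5, DOCA 2, DOCA plus JK07 3), with TruSeq libraries per the labels' protocols. The genome build was Sscrofa11.1 and the tools were edgeR, StringTie and SAMtools, per the submitters' processing notes. An aligner, tool versions, an annotation release and a strand setting are not given in the sources used here. Coverage signal, FPKM and TPM stand in 1 table per library, per the file headers, and FPKM entered no test. The authors deposited a table of estimated counts with no gene column and 35670 lines. Its lines were read as the identifiers in sorted order, for which zeros matched those of the library tables in 99.998% of values (62.6% when shifted by 1 line). The counts were whole as deposited, so rounding moved none, and 0 columns lacked a sample. Totals were 28.1 to 106 M per library. The files named 23878 identifiers and a reference table of gene names 109 more.

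All genes were fitted with the quasi-likelihood test of edgeR 4.0.16 (R 4.3.3; TMM, filterByExpr, group as the only term, all 10 libraries), with Benjamini-Hochberg adjustment over 17251 genes and a threshold of 0.05. The biological coefficient of variation was 0.873. SE is the absolute log2 change divided by the square root of F. The 2 DOCA libraries enter the shared estimate of spread. In DOCA plus JK07 against control, 803 of 17251 genes had an unadjusted edgeR p under 0.05. Fitted on only those 2 groups, 1213 of 16282 genes had, and 0 passed after adjustment in either fit. The 20 alternatives were other scalings, filters and sets of libraries or identifiers, DESeq2 1.42.0, limma 3.58.1 on voom values with quality weights or on log2(TPM + 1) and log2(TPM + 0.1), and each library left out. The limma fit on TPM rescaled over the chromosomes was added after seeing the data. The fit was tested on simulated data.

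Members and lists were chosen with earlier results of these data known. Named besides the members were up to 3 genes per list and comparison with the lowest p past the threshold, genes named whatever their values (among them SREBF2, NR1H3, NPC1, SOAT1 and LPL), the 2 most abundant markers of a list and the 3 genes most like a member (log2 CPM, prior count 2). LSS, ABCA2, OSBPL5, TOMM40 and the other genes near members were named after their values were seen. RefSeq intervals are on Sscrofa11.1. A few genes that these rules name are not reported here. No sequences were used here.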

Additional observations from a re-analysis of the deposited data

Results flagged for a closer look

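VLDLR in control library 3 stood at 36.3 CPM, and the next control was at 28.9 CPM. The gap to the nearest library was large for the range of the 5 controls. Chance marks about 1 in 20 such groups, and 6 groups were looked at. Without library 3 the log2 change of VLDLR in DOCA against control was -0.59 and did not pass. That loss was not particular to library 3, since the call was also lost without control library 1, 2, 4 or 5, and without JK07 library 8 or 10.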

How the results depend on the processing

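Over 20 alternatives per comparison, APOE kept its direction in all 3 comparisons, at 0.32 to 1.33 in DOCA plus JK07 against DOCA. No paired analysis was possible because the labels named no animal or pairing for the libraries. Genes changed in DOCA plus JK07 against control numbered 113 with DESeq2 and 8 with voom quality weights instead of 0. In DOCA against control voom gave 161 instead of 4391, and in DOCA plus JK07 against DOCA it gave 5 instead of 2930, where DESeq2 gave 5124, limma on log2(TPM + 1) 5626 and on log2(TPM + 0.1) 6084, and single libraries left out 2277 to 4455 (4455 without library 7). APOE passed in DOCA plus JK07 against control with DESeq2 (1.77) and voom (1.79). In DOCA against control it did not pass with voom (1.11), log2(TPM + 1) (0.56), log2(TPM + 0.1) (0.66) or rescaled TPM (0.92), and single libraries left out gave 0.86 to 1.49. In DOCA plus JK07 against DOCA it passed with log2(TPM + 1) (1.18) and log2(TPM + 0.1) (1.33). VLDLR in DOCA against control did not pass with RLE (-0.61), upper quartile (-0.45), voom (-0.67), only those groups (-0.66) or chromosomes alone (-0.63), with -0.89 to -0.51 for single libraries left out. In DOCA plus JK07 against DOCA it did not pass with upper quartile (0.65), voom (0.83) or only those groups (0.84), with 0.72 to 1.09 for single libraries left out. ABCA1 passed with log2(TPM + 0.1) in DOCA against control (-0.92) and DOCA plus JK07 against DOCA (1.08), and with log2(TPM + 1) in the latter (0.91). Its sign between DOCA plus JK07 and control turned with RLE (-0.020), upper quartile (-0.0025), DESeq2 (-0.020), voom (-0.037) and rescaled TPM (-0.11), and single libraries left out gave -0.21 to 0.28. SCARB1 in DOCA plus JK07 against DOCA turned with voom (0.0072), log2(TPM + 1) (0.45), log2(TPM + 0.1) (0.66) and rescaled TPM (0.14), with -0.37 to 0.30 for single libraries left out. The unnamed identifier at LRP1 turned with log2(TPM + 1) and log2(TPM + 0.1) in DOCA plus JK07 against control (0.057 and 0.064), DOCA against control (-0.40 and -0.45; rescaled TPM -0.19) and DOCA plus JK07 against DOCA (0.46 and 0.51), and single libraries left out gave -0.41 to 0.059, -0.16 to 0.26 and -0.48 to 0.035. ABCG1 was called in 8 of 20 alternatives in DOCA against control and in 6 in DOCA plus JK07 against DOCA, and its log2 change between DOCA plus JK07 and control was 0.069 to 1.15, with no call. The cause of these shifts was not tested. Members called per pathway list in DOCA against control and DOCA plus JK07 against DOCA varied with the setting, and in DOCA plus JK07 against control they were 0 in each of 13 settings run. With 3.24 M and 6.80 M counts on the chromosomes, the DOCA libraries limit what can be said of genes as low as ABCG1.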
